A study of Mus musculus with 31 samples.

Results

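PRC1.1 is the variant Polycomb repressive complex 1 that is built around KDM2B. Its genes Kdm2b, Bcor, Bcorl1, Pcgf1, Rnf2, Ring1, Rybp, Skp1a and Usp7 were followed here in single 2-cell mouse embryos. The paralog Kdm2a was followed with them and is counted among the 10 members and among the partners, although KDM2A is not a stable subunit. The members were chosen by gene symbol, as 10 of the 20544 symbols in the count table, by a rule that uses no measured value, although earlier results of these data were known when the complex was chosen. Kdm2b had been singled out by the study from these same embryos, so its own difference between groups is not independent evidence. The comparison asks whether the partners of Kdm2b moved with it, both between the groups and from embryo to embryo.

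The 31 embryos were wild type and came from in vitro fertilization of oocytes of superovulated CD1 females aged 8 to 10 weeks with sperm of C57BL/6J males aged 12 to 14 weeks. For the 16 control-generated embryos the sperm were kept in complete medium. For the 15 SER-generated embryos (SER, Sperm Energy Restriction and Recovery) the sperm were held in medium lacking glucose and pyruvate until they stopped moving, which took 15 to 45 min, and complete medium was then restored. Sperm and oocytes of both groups were incubated together for 4 h, the embryos were collected 32 h after insemination, and each embryo gave 1 Smart-seq3 library, a full-length single-cell RNA-seq method.

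KDM2B binds unmethylated CpG dinucleotides through its CXXC zinc finger and so brings the complex to CpG islands. There PCGF1 pairs with RNF2 or RING1, the E3 ligases that place ubiquitin on histone H2A (the H2AK119 mark), and RYBP stimulates that activity. BCOR or BCORL1 links PCGF1 to KDM2B and its F-box partner SKP1, and USP7 is a deubiquitinase that copurifies with the complex. KDM2A is the paralog of KDM2B, with the same CXXC finger and JmjC demethylase domain for histone H3 lysine 36, but is not a stable subunit. In the mammalian embryo Polycomb complexes are known for the repression of developmental genes, and the late 2-cell stage is the time of the major wave of zygotic genome activation in the mouse.

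The library totals ran from 532945 to 2085222 counts in control- and from 642321 to 3088396 counts in SER-generated embryos. Values are given as CPM, the counts scaled by the library total, so they give the share of a transcript in its library and do not show a change in the total RNA of an embryo. Embryos control 4 and SER 15 stood apart on the first principal component of log2 CPM (scores of 159 and 185, against -68.1 to 61.1 in the other embryos), with low sums of 17 zygotic activation markers (166 and 357 CPM, against group medians of 710 and 916) and high sums of 18 oocyte transcripts (15480 and 14835 CPM, against medians of 6846 and 6398). All values below include both embryos unless stated, and a named value is also given without 1 of them where that moved it by over 1.5 times. Cumulus cell markers were low except in control 5 (a summed 1681 CPM, of which 1423 were Cyp11a1, against at most 146 in any other embryo), and sperm transcripts summed to at most 72.2 CPM in any embryo.

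The promoters of Kdm2b are shown because the gene has starts both upstream and inside it, because the counts add up the transcripts of all, and because CpG dinucleotides are what KDM2B itself reads. The long form that starts upstream carries the JmjC domain, whereas the short form that starts inside the gene lacks it and keeps the CXXC finger. RefSeq (GRCm38.p6) lists 4 starts on the minus strand of chromosome 5. Below are the 250 bases before 3 of them (chr5:122989100-122989349 and chr5:122988508-122988757 for the upstream starts and chr5:122900368-122900617 for an internal start), with every CG in capitals, which reads the same on both strands. The window of the other internal start, chr5:122900351-122900600, largely overlaps the last and is not printed.
Kdm2b first upstream start: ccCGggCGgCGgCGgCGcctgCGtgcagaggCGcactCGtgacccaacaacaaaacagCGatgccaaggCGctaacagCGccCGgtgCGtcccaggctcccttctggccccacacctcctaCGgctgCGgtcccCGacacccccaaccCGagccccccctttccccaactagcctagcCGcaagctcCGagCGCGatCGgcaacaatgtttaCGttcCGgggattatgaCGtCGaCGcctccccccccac
Kdm2b next upstream start: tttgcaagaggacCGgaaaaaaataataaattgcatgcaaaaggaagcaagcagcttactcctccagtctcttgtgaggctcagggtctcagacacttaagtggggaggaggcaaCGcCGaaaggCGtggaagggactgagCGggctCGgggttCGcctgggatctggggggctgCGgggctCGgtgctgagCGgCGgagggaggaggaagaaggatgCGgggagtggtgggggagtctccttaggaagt
Kdm2b internal start: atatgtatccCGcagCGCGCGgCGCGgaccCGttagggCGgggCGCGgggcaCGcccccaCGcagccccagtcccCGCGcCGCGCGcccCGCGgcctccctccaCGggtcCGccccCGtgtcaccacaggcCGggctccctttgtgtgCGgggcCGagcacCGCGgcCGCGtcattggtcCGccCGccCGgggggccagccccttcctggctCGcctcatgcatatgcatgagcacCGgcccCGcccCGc
The first upstream window held 27 CG dinucleotides, a number that 8.56% of 32851 mouse promoter windows of the same length reached, while the next held 12, which 33.5% reached. The internal windows held 36 and 38, which 2.58% and 1.88% reached. Promoter windows were matched for 7 of the 10 genes and held 12 to 55 CG in 11 windows, against a median of 6 over all windows, with the lowest number at the second Kdm2b window and the highest at Usp7. A count of CG letters is a description of the window and does not show methylation or binding in these embryos.

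Kdm2b lies on chromosome 5 (chr5:122870665-122989823 in GRCm38, minus strand), and 627 of its exon bases are also exon bases of Rnf34 on the opposite strand. Kdm2b exons share a further 124 bases with Gm44574 on the same strand and 199 with A930024E05Rik on the opposite strand, neither of which is a row of the count table. Rnf2 (chr1:151458004-151500955, minus strand) likewise shares 158 exon bases with Trmt1l. The strand setting of the counting was not given in the sources used here, so reads in these overlaps cannot be assigned with certainty. The other 8 members share no exon base with another annotated gene.

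Per length of exon, the 10 genes differed widely in CPM, with Pcgf1 and Skp1a at the top and Bcor and Ring1 at the bottom. Length here is that of all annotated exons of a gene joined, which can exceed the length of the transcripts present. The study merged reads of the 5' end with internal reads, so CPM per kb ranks different genes only roughly. The effect of either on the order was not tested. The median over the 31 embryos was 110 CPM per kb for Pcgf1 and 108 CPM per kb for Skp1a, above 95.9% and 95.7% of the tested genes. Rnf2 followed at 54.1 CPM per kb and Usp7 at 30.9 CPM per kb, both also above the median of 10.0 CPM per kb over tested genes. Bcorl1 (8.79), Rybp (8.61), Kdm2b (6.11), Kdm2a (2.64) and Bcor (1.45 CPM per kb) lay below that median, and the median of Ring1 was 0. Neighbours in this order whose interquartile ranges overlapped were Pcgf1 and Skp1a, Bcorl1 and Rybp, Rybp and Kdm2b, Kdm2a and Bcor, and Bcor and Ring1, so these pairs were not separated by the spread between embryos. The order of the medians of the lower genes differed between the groups: Bcorl1, Rybp and Kdm2b were at medians of 6.72, 9.10 and 3.80 CPM per kb in control and 11.7, 7.67 and 9.50 CPM per kb in SER embryos. This difference in order was not tested.

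**Figure D1:**
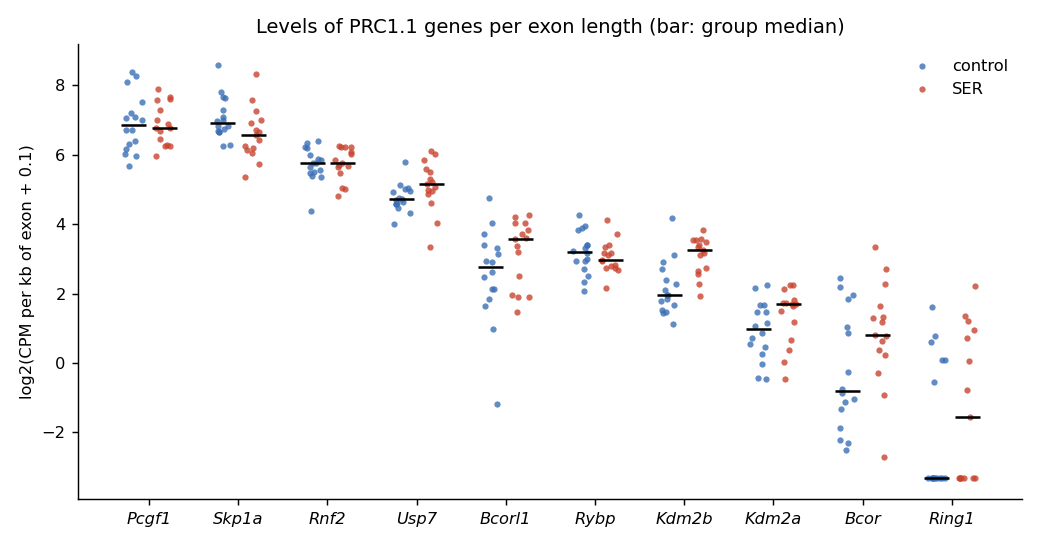
Level of each of the 10 genes in every embryo as log2(CPM per kb of exon + 0.1), ordered by the median over 31 embryos, with control embryos in blue, SER embryos in red and group medians as bars. Pcgf1 and Skp1a lead at medians of 110 and 108 CPM per kb, and Ring1 lies at 0 counts in 17 embryos.

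Within the paralog pairs of the complex, 1 copy usually predominated in CPM per kb, with the same limits. Rnf2 exceeded Ring1 per kb in 31 of 31 embryos, and Ring1 had no count in 17 of them, where 3 counts, the most that a count of 0 allows, would be at most 4.67 CPM, a limit for counting error alone. Bcorl1 exceeded Bcor in 30 of 31 embryos, with a median ratio per kb of 5.51. Kdm2b exceeded Kdm2a in 30 of 31 embryos (median ratio 2.44), but Fbxl19, the third mammalian member of this CXXC and F-box family, exceeded Kdm2b in 30 of 31, with a median ratio of 14.9 in control and 5.42 in SER embryos. Rybp and its paralog Yaf2 were not separated, with Rybp the higher in 15 of 31 embryos. Among the PCGF genes, which define the different PRC1 complexes, Pcgf1 (110 CPM per kb) was close to Bmi1 (126), the PCGF subunit of a canonical PRC1, and exceeded Pcgf6 (33.4) in 31 of 31 embryos. Pcgf5, Pcgf3 and Pcgf2 were at medians of 13.8, 3.10 and 0 CPM per kb.

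Between the groups, Kdm2b had the smallest p of the 9 members tested and was the only one under an unadjusted 0.05, and no member passed the test over all genes. Of 8571 genes tested by edgeR's quasi-likelihood test, 0 (0.00%) were called at a Benjamini-Hochberg adjusted p under 0.1, 491 had an unadjusted p under 0.05, and DESeq2 called 45 genes with no member among them. The p-values measure the spread between embryos, and the 3 batches of embryos that the study states are not named for each embryo in the labels, so batch could not be entered in the fit. The treatment was given to sperm, and the study put the paired caudae epididymides into different media. Embryos from a shared sperm preparation or dish are not independent replicates of the treatment. The labels name no male, sperm preparation or dish, so the spread between sperm preparations was not measured.

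Kdm2b ranged from 22.6 to 196 CPM around a median of 41.3 in control embryos and from 40.0 to 155 CPM around a median of 103 in SER embryos. The groups overlapped throughout, since every SER embryo lay inside the control range, yet 14 of 15 SER embryos exceeded the control median. The estimate was 1.67-fold higher in SER (log2 fold change 0.74 ± 0.28 SE, 95% interval 0.17 to 1.31, unadjusted p = 0.0122, edgeR adjusted p = 0.730). Among all genes 2.18% were higher in SER at an unadjusted p under 0.05. The control maximum was embryo control 4; without it the control embryos reached 92.7 CPM at most, 10 of 15 SER embryos exceeded that, and the log2 fold change was 1.05 (edgeR adjusted p = 0.213). Without both control 4 and SER 15 it was 1.00 (edgeR adjusted p = 0.202).

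Rnf34, the gene that overlaps Kdm2b on the opposite strand, showed the other direction (log2 fold change -0.33 ± 0.42 SE, edgeR adjusted p = 0.967). Among control embryos Rnf34 was also highest in control 4 (682 CPM, against a control median of 99.7). Among SER embryos it was highest in SER 15 (537 CPM, against a SER median of 57.3). Kdm2b was at 127 CPM in SER 15, below the SER maximum of 155 CPM in SER 1. The share of overlapping reads in the Kdm2b values was not tested. The log2 fold change of Rnf34 was 0.18 without control 4 and -0.83 without SER 15.

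Kdm2a, the paralog, ranged from 8.94 to 67.7 CPM in control embryos (median 26.9) and from 8.99 to 67.7 CPM in SER embryos (median 45.1). The ranges coincided almost fully, and 11 of 15 SER embryos lay above the control median. The log2 fold change was 0.39 ± 0.31 SE (95% interval -0.23 to 1.01, edgeR adjusted p = 0.935).

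The scaffold genes had the widest spread of log2 CPM among the 9 tested members, which leave out Ring1. Bcor ranged from 0.642 to 46.0 CPM in control (median 4.12) and from 0.463 to 87.2 CPM in SER embryos (median 14.4), on counts as low as 1. The medians were far apart and 13 of 15 SER embryos exceeded that of control, but the SD on the log2 CPM scale was 1.54 in control and 1.36 in SER embryos. The log2 fold change of Bcor was 0.80 ± 0.57 SE (95% interval -0.35 to 1.95, edgeR adjusted p = 0.935), and 0.49 without SER 8. Bcorl1 ranged from 2.93 to 229 CPM in control (median 57.3) and from 22.6 to 162 CPM in SER embryos (median 100.1), with 10 of 15 above the control median and a log2 fold change of 0.38 ± 0.36 SE (edgeR adjusted p = 0.949), which was 0.62 without control 13.

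In the catalytic core no difference between the groups was detected. Rnf2 ranged from 86.0 to 346 CPM in control and from 116 to 315 CPM in SER embryos, with a median of 223 CPM in each. Its log2 fold change of -0.02 ± 0.19 SE (95% interval -0.40 to 0.36, edgeR adjusted p = 0.993) had the narrowest interval of the complex, which still allows a moderate difference in either direction, and it ran from -0.08 to 0.03 with 1 embryo left out. Pcgf1 ranged from 84.6 to 553 CPM in control (median 193) and from 103 to 390 CPM in SER embryos (median 182), with a log2 fold change of -0.22 ± 0.28 SE (edgeR adjusted p = 0.967). With 1 embryo left out that estimate was -0.05 (control 1), -0.07 (control 3) or -0.14 (control 12), and without both control 4 and SER 15 it was -0.37. The groups overlapped fully for Pcgf1, with every SER embryo inside the control range. Ring1 was too low to enter the test. It had 0 counts in 10 of 16 control and 7 of 15 SER embryos and at most 46 counts, so a difference was not detectable with these counts (log2 fold change 0.93 ± 0.95 SE in a fit of all genes with a count, edgeR adjusted p = 0.781; 1.42 without control 9 and 0.49 without SER 10).

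Rybp ranged from 19.6 to 91.1 CPM in control (median 43.1) and from 20.8 to 82.5 CPM in SER embryos (median 36.3). All SER embryos fell inside the control range, 4 of 15 exceeded the control median, and the log2 fold change was -0.21 ± 0.24 SE (95% interval -0.69 to 0.27, edgeR adjusted p = 0.958). It was -0.12 without control 3 and -0.13 without control 15.

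Skp1a and Usp7 were next to Kdm2b in the size of their unadjusted p, with estimates in opposite directions. Skp1a, whose protein is also the adaptor of SCF ubiquitin ligases, ranged from 169 to 854 CPM in control (median 264) and from 90.5 to 716 CPM in SER embryos (median 208). Of the SER embryos 5 of 15 lay below the lowest control embryo, and the log2 fold change was -0.47 ± 0.28 SE (95% interval -1.04 to 0.10, unadjusted p = 0.101, edgeR adjusted p = 0.892). The estimate for Skp1a was -0.26 without control 3 and -0.71 without SER 15.

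Usp7 ranged from 124 to 433 CPM in control (median 204) and from 77.8 to 533 CPM in SER embryos (median 279). Of the SER embryos 12 of 15 exceeded the control median, 3 lay above the highest and 1 below the lowest control embryo. The log2 fold change of Usp7 was 0.39 ± 0.21 SE (95% interval -0.03 to 0.82, unadjusted p = 0.0705, edgeR adjusted p = 0.869).

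**Figure D2:**
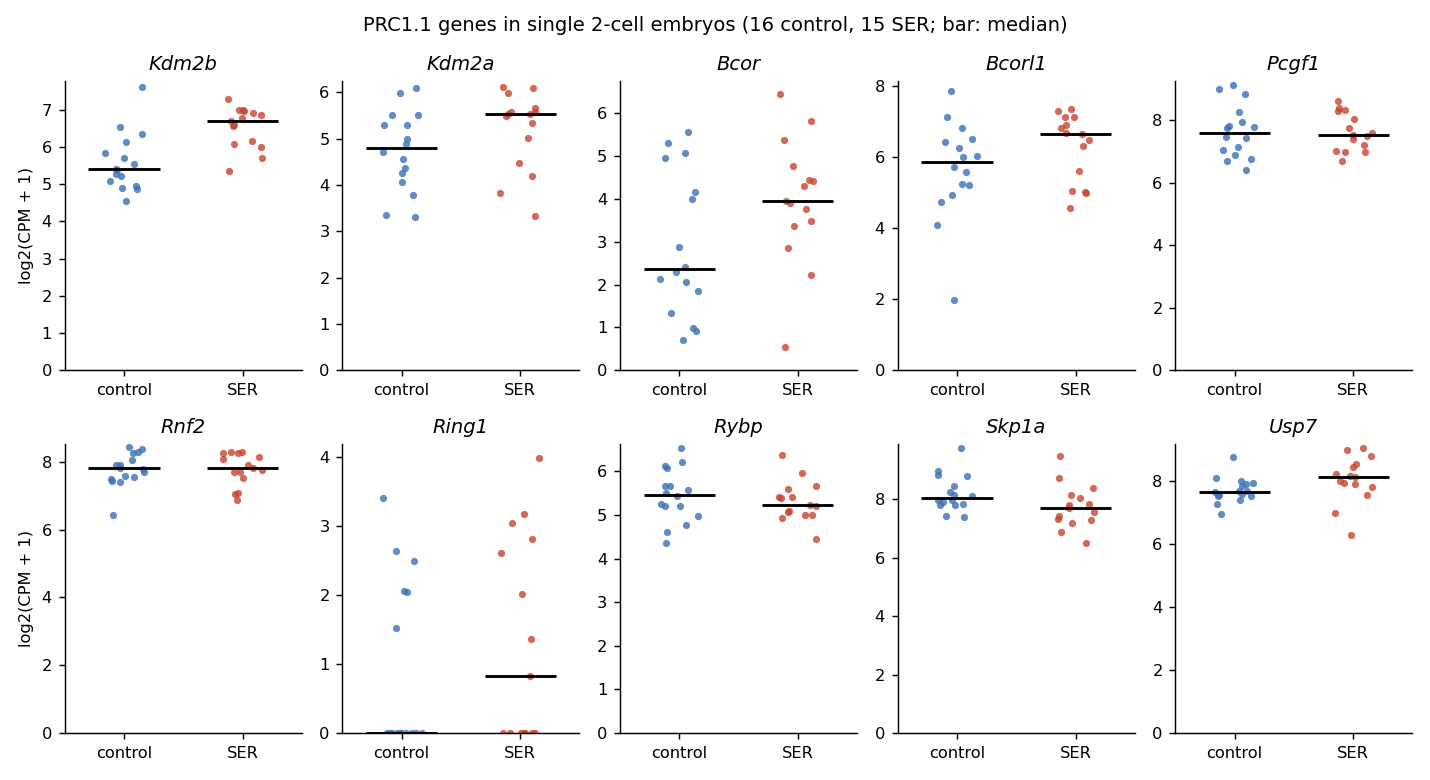
log2(CPM + 1) of each of the 10 genes in every embryo, control in blue and SER in red, with group medians as bars and a scale of its own for each gene. The Kdm2b medians are 41.3 CPM in control and 103 CPM in SER embryos with 1 high control embryo (control 4), while the Rnf2 medians are both 223 CPM.

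Counted over the complex, the estimate was above 0 for 5 of the 9 tested members and below 0 for 4, and their median was 0.38 on the log2 scale. The 8 tested partners without Kdm2b split into 4 higher and 4 lower with a median of 0.18, beside 52.7% higher and a median of 0.02 over all tested genes. The sign of the estimate went with exon length, though not without overlap: the 6 genes with a higher estimate, Ring1 included, had 3243 to 14446 exon bases and the 4 with a lower estimate 1649 to 4740. The same held for genes at large, whose median estimate ran from -0.26 in the shortest to 0.13 in the longest of 10 equal groups by exon length. With this trend removed from each embryo, an alternative chosen after seeing the data, Kdm2b was at 0.64 (edgeR adjusted p = 0.959), Kdm2a at 0.27, Bcor at 0.73, Bcorl1 at 0.32, Usp7 at 0.27, Skp1a at -0.30 and Pcgf1 at 0.13. Rnf2 (-0.08), Rybp (-0.29) and Ring1 (0.94) moved no closer to 0.

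**Figure D3:**
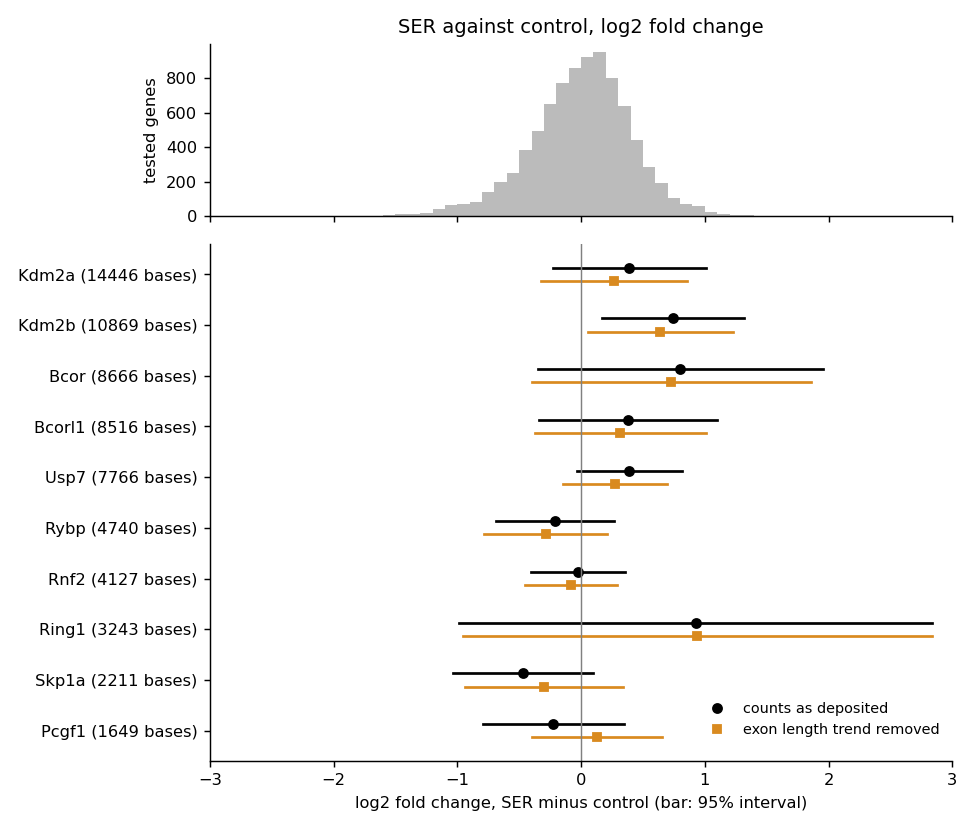
Upper panel, number of tested genes in bins of 0.1 by log2 fold change (SER minus control); lower panel, the 10 members by exon length with 95% intervals, as deposited (black) and with the exon length trend removed (orange). With both, only the interval of Kdm2b lies above 0 (0.17 to 1.31 as deposited), and no adjusted p passed.

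Other fits of the same counts differed in whether Kdm2b was called. A limma voom fit with a quality weight for each embryo called Kdm2b (log2 fold change 1.15, adjusted p = 0.00212) and Usp7 (0.57, adjusted p = 0.0361), in a fit that called 4.56% of all genes higher in SER. With 3 clusters of embryos estimated from the data as a term, edgeR called Kdm2b (0.89, adjusted p = 0.0513) but no partner, and 0.140% of genes were called higher. With 5 surrogate variables it called Kdm2b (0.99, adjusted p = 0.0643), again with no partner, and 0.0933% of genes higher. The clusters were estimated from the same counts with the group means removed, and the surrogate variables with the group kept in their model. The tests take these terms as known, so their p-values may be too small. The estimate for Kdm2b was above 0 in all of these fits, and Usp7 was the only partner called in any of them. The spread on the log2 CPM scale was wider in control than in SER embryos for 5 of 9 members (55.6%), Kdm2b included (SD 0.81 and 0.56), beside 54.2% of all tested genes.

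From embryo to embryo, no partner was called as moving with Kdm2b over all 31 embryos. Pearson's r with Kdm2b was computed on log2 CPM after the group means were removed, with a permutation test within the groups and adjustment over 8570 genes. The permutation takes the embryos of a group as exchangeable. Batch, sperm preparation and dish are not named for each embryo, and embryos that share them may deviate together. The permutation p-values here and below may therefore be too small. Of the 8 tested partners 4 had r above and 4 below 0, with a median of 0.00, and 0 were called. Over all other tested genes the median r was -0.05 and the middle 95% ran from -0.47 to 0.44, so each of the 8 partners fell inside the range of genes at large. Among all genes 0.653% were called with r above 0 and 0.607% with r below 0.

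Usp7 had the highest r with Kdm2b, 0.39 (permutation p = 0.0174, adjusted p = 0.282) with Spearman's rho of 0.38 (permutation p = 0.0362, adjusted p = 0.185). It was the only partner under an unadjusted permutation p of 0.05, which 5.26% of all genes passed with r above 0, and 4.06% of genes had a higher r than Usp7. Within the groups r of Usp7 was 0.30 in control and 0.55 in SER embryos. Without embryos control 4 and SER 13, the farthest from the median of Kdm2b, r of Usp7 was 0.38, and without SER 13 alone it was 0.27. With the replicate number as a block it was 0.08 (adjusted p = 0.850), the lowest of the alternatives tried.

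Kdm2a followed with r = 0.30 (permutation p = 0.109, adjusted p = 0.483) and rho = 0.32 (permutation p = 0.0853, adjusted p = 0.277). At the other end Rnf2 had r = -0.35 (permutation p = 0.0596, adjusted p = 0.405), but its rho was -0.10 (permutation p = 0.603, adjusted p = 0.777) and its r was -0.09 without control 4, the embryo with the highest Kdm2b and the lowest Rnf2 in control. Rybp had r = -0.32 (permutation p = 0.104, adjusted p = 0.476) and rho = -0.18 (permutation p = 0.354, adjusted p = 0.586), and r = -0.16 without control 4. Bcor, Bcorl1, Pcgf1 and Skp1a lay between -0.05 and 0.03 in r (adjusted p from 0.934 to 0.988) and between -0.17 and 0.11 in rho (adjusted p from 0.596 to 0.929). Ring1, tested on its own because it did not pass the filter, had r = 0.02 (permutation p = 0.914) and rho = 0.08 (permutation p = 0.652).

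**Figure D4:**
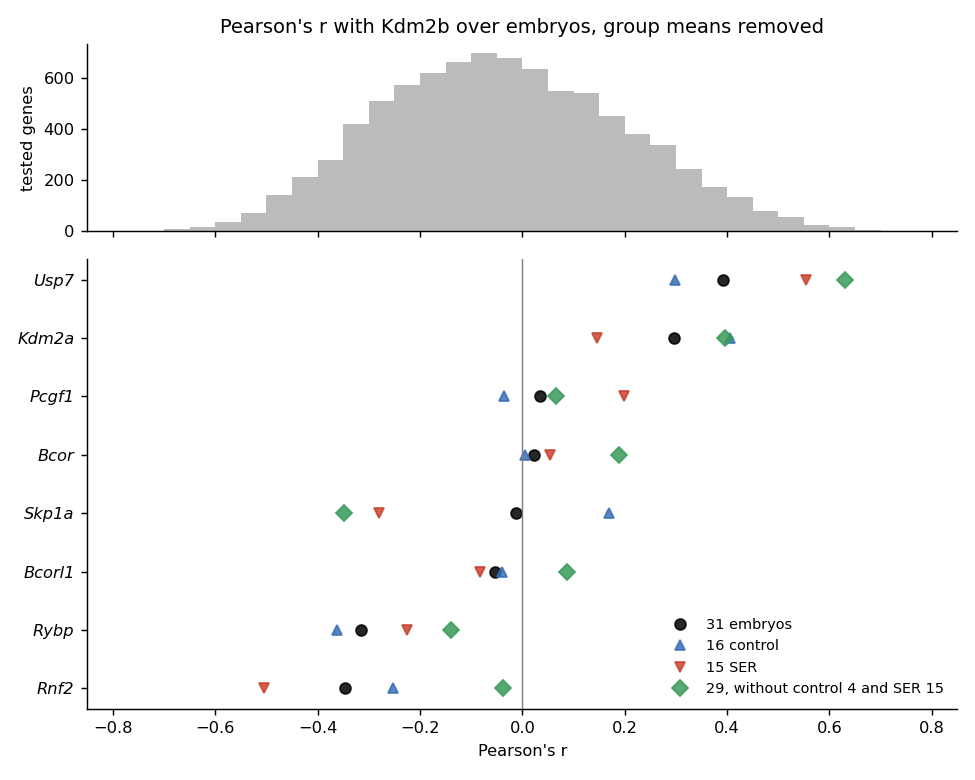
Upper panel, number of tested genes in bins of 0.05 by Pearson's r with Kdm2b over 31 embryos; lower panel, r of the 8 tested partners over all embryos (black circles), control alone (blue), SER alone (red) and 29 embryos without control 4 and SER 15 (green). Usp7 is highest over all embryos at 0.39 and Rnf2 lowest at -0.35.

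Without the 2 embryos that stood apart, Usp7 was at r = 0.63 (permutation p = 0.00022, adjusted p = 0.00318) and Kdm2a at r = 0.40 (permutation p = 0.0370, adjusted p = 0.0998), and both were called. In the same 29 embryos, however, 20.7% of all genes were called with r above 0, so 2 of 8 partners is near that background. Of all genes 4.78% had a higher r than Usp7 and 20.7% a higher r than Kdm2a, beside 4.06% and 8.87% over all 31 embryos. The other 6 partners were not called there, and ran from -0.35 for Skp1a to 0.19 for Bcor. In the largest of the 3 estimated clusters, of 11 control and 10 SER embryos, r was 0.49 for Usp7 (permutation p = 0.0316), 0.23 for Kdm2a and 0.09 for Rnf2. In another, of 4 control and 4 SER embryos, Pcgf1 reached 0.94 (permutation p = 0.0108) although it was -0.31 in the first. The p-values within clusters are unadjusted over the 8 partners, and the clusters were estimated from the same counts.

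**Figure D5:**
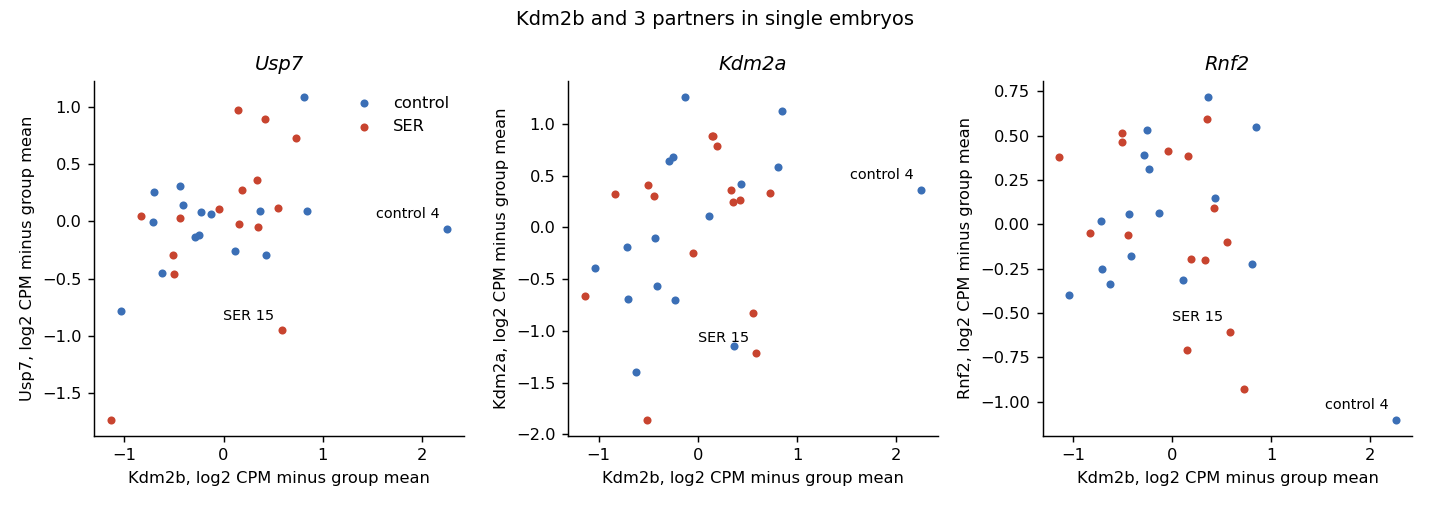
Log2 CPM minus the group mean of Usp7, Kdm2a and Rnf2 (vertical axes) against that of Kdm2b (horizontal axes), 1 point per embryo, control in blue and SER in red, with control 4 and SER 15 named. Control 4 lies 2.26 above the control mean of Kdm2b and is the lowest embryo for Rnf2, and r over 31 embryos is 0.39, 0.30 and -0.35.

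The 5 highest and 3 lowest r with Kdm2b over the 31 embryos were taken from all 8570 genes. Only 8 of these are partners, so the absence of partners from the extremes says nothing about the complex. The highest r was that of Khdc1c (0.74, adjusted p = 0.0214), followed by Xrn2 (0.71), which encodes a nuclear exoribonuclease, Edrf1 (0.67), Champ1 (0.67), which encodes a zinc finger protein of chromosome alignment, and Tardbp (0.66), which encodes the RNA-binding protein TDP-43. The lowest r was that of Hnrnpul2 (-0.75), Ypel3 (-0.72) and Tacc1 (-0.70), and all 8 passed the permutation test with an adjusted p between 0.0214 and 0.0371. With the 3 estimated clusters removed 5 of them were no longer called: Khdc1c (adjusted p = 0.129), Xrn2 (0.123), Edrf1 (0.209), Champ1 (0.143) and Tacc1 (0.152). After thinning to the smallest library Edrf1 (adjusted p = 0.149) and Tardbp (0.106) were not called, and Edrf1 was not called without SER 13 (0.109) or without the 2 embryos farthest from the median of Kdm2b (0.114). None of these 8 genes was called between the groups, where their edgeR adjusted p was 0.936 to 0.981. Spearman's rho ran from 0.53 for Edrf1 to 0.74 for Xrn2 and from -0.81 for Hnrnpul2 to -0.69 for Tacc1 (permutation test, adjusted p from 0.00714 to 0.0665). Kdm2b itself had r between -0.18 and 0.26 with the library total, the number of genes detected, the exon length trend and the sums of zygotic and oocyte transcripts (5 relations, permutation test, adjusted p of at least 0.725 for r and 0.621 for rho).

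In the related gene groups, too, edgeR called no gene between the groups. The limma voom fit with quality weights called 10 genes of the 6 groups, 5 higher (Pcgf6, Mga, Rbbp4, Mysm1 and Riox2) and 5 lower (AU022751, Phf1, Foxk1, Usp21 and Fbxo30), in a fit that called 4.56% of all genes higher and 5.33% lower; those outside the rule for named genes are named after their values were seen. None of the 10 was called by another fit. Of the other PRC1 subunits 14 of 18 tested had an estimate above 0, beside 52.7% of all tested genes. The counts by direction, here and in the groups below, were not tested. The exon length trend was not removed from them. Their smallest unadjusted p was that of Pcgf6, the PCGF subunit of the variant complex PRC1.6 (log2 fold change 0.46 ± 0.21 SE, unadjusted p = 0.0317, edgeR adjusted p = 0.809), while Yaf2 was at -0.75 ± 0.46 SE (-0.48 without control 3). Among PRC2 subunits, which place methyl groups on lysine 27 of histone H3, 5 of 11 had a higher estimate. The smallest unadjusted p among these was that of Ezh1, a catalytic subunit (0.54 ± 0.24 SE, unadjusted p = 0.0340, edgeR adjusted p = 0.809). Among the lower ones it was that of AU022751, which encodes the PRC2 inhibitor EZHIP (-0.55 ± 0.35 SE, and -0.20 without control 4). In the group of H2AK119 deubiquitination, the reverse of the RNF2 reaction, 9 of 13 had a higher estimate, with Mbd5 at 0.51 ± 0.26 SE and Foxk1 at -0.25 ± 0.29 SE (-0.16 without control 14).

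Of the other CXXC readers of CpG islands 3 of 6 tested had a higher estimate, with Dnmt1 at 0.33 ± 0.21 SE and Fbxl19 at -0.42 ± 0.37 SE (-0.23 without control 14). Of the genes of H3K36 methylation, the mark that KDM2A and KDM2B remove, 8 of 10 had a higher estimate. The smallest unadjusted p in each direction was that of Kdm4a at 0.30 ± 0.21 SE and of Nsd2 at -0.09 ± 0.22 SE (-0.04 without SER 15 and -0.20 without SER 3). Of the SCF ubiquitin ligase genes that share SKP1 with the complex 8 of 13 had a higher estimate, among them Fbxo34 (0.37 ± 0.21 SE). Rbx1, the RING subunit of these ligases, had the smallest unadjusted p of the 6 groups (log2 fold change -0.85 ± 0.29 SE, unadjusted p = 0.00570, edgeR adjusted p = 0.561) and exceeded the control median in 2 of 15 SER embryos. Without embryo control 3 its log2 fold change was -0.44. Over these 6 groups 4 genes had an unadjusted p under 0.05: Pcgf6 and Ezh1 with a higher estimate, and Rbx1 and Fbxo5, named after its value was seen, with a lower one (Fbxo5 -0.52 ± 0.22 SE, edgeR adjusted p = 0.809). The groups held 18, 11, 13, 6, 10 and 13 tested genes. Among all 8571 genes tested by edgeR 491 had an unadjusted p under 0.05, so the 4 genes are not read as a result about the groups.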

How the data were processed

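RNA of 31 single 2-cell embryos (16 control, 15 SER) was sequenced by Smart-seq3. The authors aligned reads of the 5' end and internal reads with STAR, removed duplicates and merged both. They counted reads per gene with featureCounts and deposited raw counts per gene symbol, without normalization. The labels name the build mm10; tool versions, annotation and strand setting are not given in the sources used here. The study's batch correction could not be repeated, because neither the labels nor the column names give an embryo's batch.

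Groups were taken from the labels. CPM are counts scaled by the library total. SER and control were compared by edgeR 4.0.16 (quasi-likelihood test, TMM factors, filterByExpr set to at least 10 counts and a total of 15) in R 4.3.3, on all 8571 genes that passed the filter, with Benjamini-Hochberg adjustment and a threshold of 0.1. Of the 10 members 9 passed; Ring1 came from a fit of all 17803 genes with a count. Correlations with Kdm2b used log2 CPM (prior count 2) after removal of group means, 100000 two-sided permutations within groups and adjustment over 8570 genes. GENCODE vM21 (GRCm38) gave positions and exon lengths, with 20020 of 20544 symbols matched directly and 347 through older symbols. Promoters came from RefSeq. The scripts were tested on simulated data with known changes, of which the edgeR test recovered most of the larger and a minority of the smaller ones. Alternatives used limma 3.58.1, DESeq2 1.42.0 and sva 3.50.0.

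The members and gene lists were chosen with earlier results of these data known. The named genes were all members, the genes overlapping their exons, for each list the gene of smallest p in each direction, and the 5 highest and 3 lowest correlations with Kdm2b among called genes. The study's own fold changes and p-values were not used.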

Additional observations from a re-analysis of the deposited data

How the results depend on the processing

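Of 13 other fits of SER against control, 3 called a member. Kdm2b alone was called with 3 estimated clusters (1 member, 41 genes in all) and with 5 surrogate variables (1 member, 61 genes), and Kdm2b and Usp7 with limma voom (2 members, 848 genes). The clusters and surrogate variables were estimated from the same counts, which may make the p-values of those fits too small. The fit with no filter called 504 genes and DESeq2 called 45, without a member. Leaving out 1 embryo at a time called 0 genes each time. The Kdm2b estimate stayed above 0 in every alternative run, between 0.59 (thinned to the smallest library) and 1.15 (limma voom). With 1 embryo left out it lay between 0.68 (without SER 1) and 1.05 (without control 4). Estimates that changed sign were those of Nsd2 (0.035 with library size as a covariate), Ring1 (-0.13 with voom) and Pcgf1 (0.13 with voom, 0.13 with the exon length trend removed and 0.055 with the replicate block and the trend removed). With 1 embryo left out Pcgf1 ran from -0.33 to -0.05, Skp1a from -0.71 to -0.26, Bcor from 0.49 to 1.12, Rnf2 from -0.083 to 0.032 and Rnf34 from -0.83 to 0.18. The causes were not tested.

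The count of genes correlated with Kdm2b, 108 as reported, depended on the setting. It was 650 by Spearman's rho, 26 after thinning to the smallest library, 307 with the length trend removed, 2 in control embryos alone, 658 without the 2 embryos farthest from the median of Kdm2b, 3184 without control 4 and SER 15 (2 partners, Usp7 and Kdm2a) and 38 at an adjusted p under 0.05. With 1 embryo left out it ran from 12 (without SER 13) to 1362 (without control 4), with 0 to 1 partners called, the 1 being Usp7 without control 4.

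Signs of r changed as follows. Skp1a was at 0.0081 with DESeq2 size factors, 0.012 with library size removed, 0.015 after thinning, 0.14 with the length trend removed, 0.17 in control alone and -0.19 to 0.045 with 1 embryo left out. Pcgf1 was at -0.37 with clusters removed, -0.0032 after thinning, -0.036 in control alone and -0.014 to 0.13 with 1 embryo left out. Bcorl1 was at 0.19 with clusters removed, 0.046 without the 2 farthest embryos, 0.088 without control 4 and SER 15 and -0.12 to 0.026 with 1 embryo left out. Bcor was at -0.0084 with the length trend removed and -0.057 to 0.17 with 1 embryo left out. Trmt1l was at 0.31 over the 31 embryos (permutation test, adjusted p = 0.461) and -0.16 with clusters removed. It was called at 0.51 with the replicate block and the length trend removed (permutation test, adjusted p = 0.0660), where 833 genes were called. Rnf34 was at 0.20 over the 31 embryos (permutation test, adjusted p = 0.641). It was at -0.12 by rho, -0.17 in SER alone, -0.089 without the 2 farthest and -0.19 to 0.30 with 1 embryo left out. Without control 4 and SER 15 it was called at -0.42 (permutation test, adjusted p = 0.0771), where 3184 genes were called.

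The replicate numbers share no stated animal, litter or day, and not every pair deviated together: over 15 pairs the correlation of deviations ran from -0.37 to 0.49 (median 0.11, 8 pairs over 0.1), and 4 of the control embryos correlated best with their own number. Whether embryos of the same number shared conditions was not tested. Embryos of the same number were not treated as pairs. With the replicate block no member and 0 genes were called between the groups (Kdm2b 0.90, edgeR adjusted p = 1.00). The block gave 774 genes correlated with Kdm2b, no partner among them, with Usp7 at 0.08, Bcor at -0.34, Pcgf1 at -0.066 and Skp1a at 0.067. The block with the length trend removed gave 833, with Bcor at -0.41, Rybp at 0.019 and Skp1a at 0.18. The alternatives of the length trend and of both embryos left out were chosen after seeing the data.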
